A study of Mus musculus with 54 samples.

Results

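This account follows the loss of the transcription factor Gata6 in mouse extraembryonic endoderm cells that are labelled as FoxA2 mutants. Its members are the 4 RNA-seq libraries whose titles name the Gata6-FKBP line with the FoxA2 mutation, 2 at 0 h and 2 at 48 h, out of 40 RNA-seq libraries and 54 samples in the series. All 4 came from cXEN cells, a stem cell line of the extraembryonic endoderm, grown in Advanced RPMI with serum. Both groups carried the same genotype, labelled Gata6-FKBP;FoxA2-/-, so the FKBP tag on Gata6 and the FoxA2 mutation were shared by treated and control cells. The 0 h cells received DMSO, and the 48 h cells 500 nM dTAGV1, a small molecule that binds the FKBP tag and marks the tagged protein for degradation. The comparison group in the same tagged line without the FoxA2 mutation had the same treatments in 2 libraries at 0 h and 2 at 48 h, with further libraries at 6, 24, 72 and 96 h. The Sox17-FKBP line with the FoxA2 mutation also had 2 libraries at 0 h and 2 at 48 h of 500 nM dTAGV1. Whether the mutant lines are single clones is not given in the sources used here, so a difference between lines and the FoxA2 mutation itself cannot be told apart. The labels do not say whether replicates were separate cultures, so the p-values reflect the spread among the sequenced samples alone, which may be technical.

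Gata6 is a zinc-finger factor that binds GATA sequences and starts the primitive endoderm programme in the blastocyst. FoxA2 is a forkhead factor that can bind closed chromatin and acts beside GATA factors in endoderm of several kinds. Primitive endoderm gives rise to parietal endoderm, which lays down the thick basement membrane around the embryo, and to visceral endoderm, which takes up and supplies nutrients. The comparison asks how far the transcriptome responds to loss of Gata6 once FoxA2 is gone.

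The 4 libraries held 20.2 to 22.3 M reads in genes, against 16.2 to 42.5 M over all RNA-seq libraries. Levels are given as CPM, reads per 1 M gene reads after TMM scaling, and a change is the log2 ratio of 48 h to 0 h ± its standard error. A gene is called when its Benjamini-Hochberg adjusted p in edgeR's quasi-likelihood test was under 0.05. The cells held RNA of their labelled type: all 21 listed primitive endoderm and XEN genes had a mean of 5 CPM or more in the mutant. The list includes laminin and type IV collagen genes, so its sum does not show the regulators alone. The summed level was 25140 to 26450 CPM at 0 h and 26840 to 28090 CPM at 48 h. That sum was 46970 to 50710 CPM in the line without the mutation at the same times. Of 16 listed trophoblast genes, 9 passed the filter on low counts, and 4 had a mean of 5 CPM or more. Those 9 summed to 81.3 to 86.8 CPM over the 4 libraries, against 4.19 to 5.27 CPM without the mutation at the same times. Cdx2, Elf5 and Tfap2c, under that filter, were at or under 0.257 CPM in the mutant. The trophoblast sum was of like size at 0 and 48 h, and its part in the difference between lines was not tested. The 9 pluripotency and epiblast genes that passed the filter, 7 of them at a mean of 5 CPM or more, summed to 1070 to 1141 CPM in the mutant. Their sum was 646.4 to 1026 CPM without the mutation. The 9 feeder fibroblast genes that passed, 1 of them at 5 CPM or more, summed to at most 12.3 CPM. Lum and Fap, under the filter, were at 0. The 48 h replicate 2 stood somewhat apart: its correlation with the other 3 libraries on the log2 scale was 0.994 to 0.996, against 0.997 among those 3. A chi-square of the counts of both 48 h replicates came to 14 per degree of freedom, where counting error would give about 1, and that of the 0 h replicates to 6.13.

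No change in the RNA of Gata6 or FoxA2 passed the test. Gata6 (ENSMUSG00000005836; mm10 chromosome 18, 11052510 to 11085636) stood at 124 and 132 CPM in the 0 h libraries and at 137 and 125 CPM in the 48 h libraries. The groups overlapped, and the change was 0.04 ± 0.06 (95% interval −0.09 to 0.16, adjusted p = 0.887). Since dTAGV1 acts on the protein, which was not measured here, RNA does not check the degradation. Foxa2 (ENSMUSG00000037025; chromosome 2, 148042877 to 148046969) was still read in the mutant, at 112 and 112 CPM at 0 h and at 115 and 128 CPM at 48 h (change 0.11 ± 0.07, adjusted p = 0.645). Gene counts cannot show which part of the gene the mutation touches, so this RNA does not check the genotype either. In the line without the mutation, Gata6 RNA rose over the same 48 h from a mean of 269 to 314 CPM (0.22 ± 0.06, adjusted p = 0.0043) and Foxa2 RNA fell from 124 to 101 CPM (−0.29 ± 0.07, adjusted p = 0.00153). For Foxa2 the responses in both lines differed by 0.40 (adjusted p = 0.00297), and for Gata6 they did not pass the test (−0.19 ± 0.09, adjusted p = 0.111). At 0 h the mutant held less Gata6 RNA than the line without the mutation, a log2 difference of −1.07 ± 0.06 (adjusted p = 3.39e-14).

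The other endoderm factors gave no call. Gata4, the GATA factor closest to Gata6 in endoderm, was at 614 and 583 CPM at 0 h and at 633 and 719 CPM at 48 h (change 0.18 ± 0.07, adjusted p = 0.396). Both 48 h libraries lay above both 0 h libraries, with the upper value from replicate 2. Sox17, an HMG-box endoderm factor, was at 354 and 361 CPM and then at 396 and 444 CPM (change 0.23 ± 0.07, adjusted p = 0.249). Of 33 listed endoderm transcription factors, 28 passed the filter on low counts and 0 were called in the mutant, where 0.239% of all genes were. In the line without the mutation 3 were called higher and 8 lower, where 18.2% and 21.9% of all genes were, so neither count sets these factors apart from other genes. Zfpm1, the GATA cofactor FOG1, was not called in the mutant either, with 76.5 and 74.7 CPM at 0 h and 71.5 and 71.7 CPM at 48 h. It fell without the mutation from a mean of 117 to 46.6 CPM, and the responses differed by 1.26 ± 0.12 (adjusted p = 2.46e-08). Klf5, a zinc-finger factor of early lineages, fell by 0.72 without the mutation and had a value of −0.13 ± 0.10 in the mutant (adjusted p = 0.749). Hnf4a, a nuclear receptor of visceral endoderm, was at 0.359 to 0.823 CPM in the 4 mutant libraries and at a mean of 34.0 CPM in untreated cells without the mutation, so its value in the mutant rests on few reads.

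**Figure D1:**
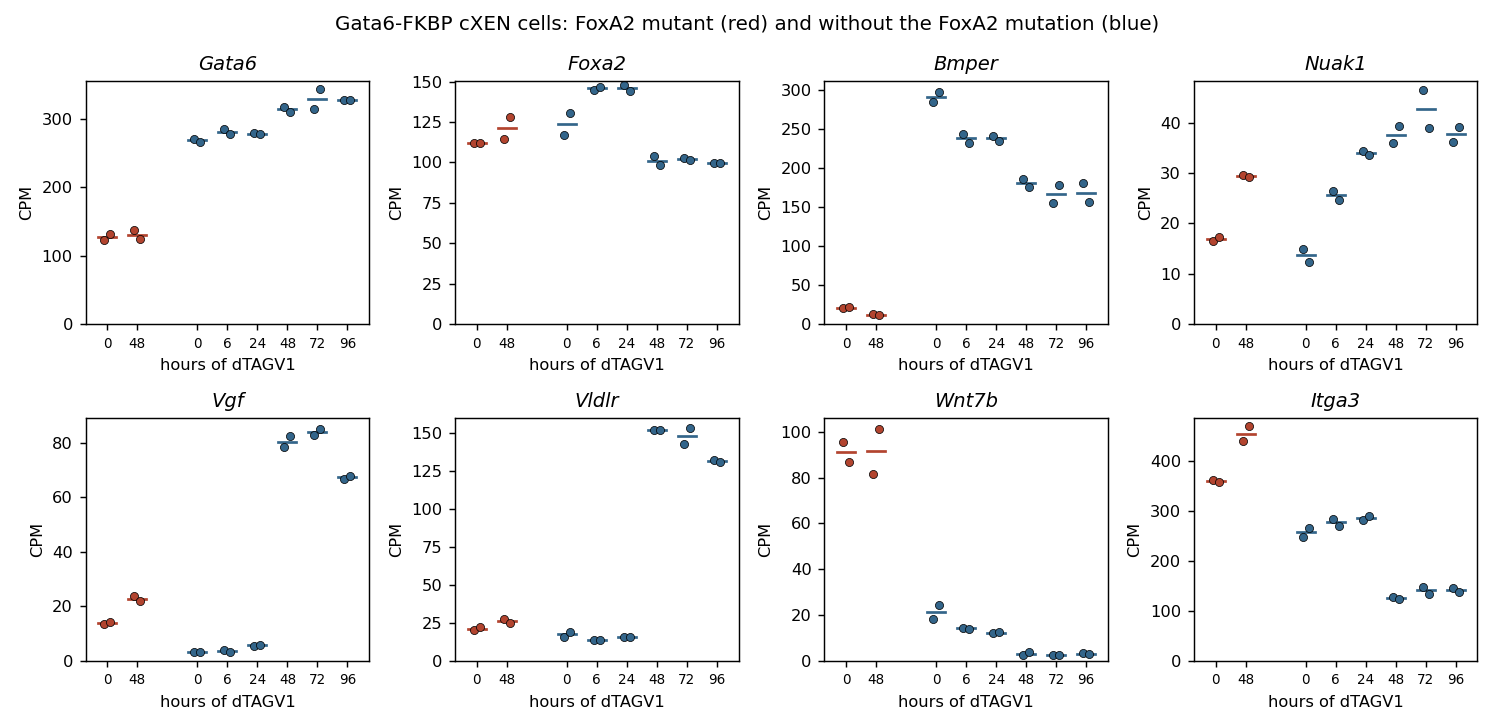
CPM of 8 genes in each library against hours of dTAGV1, with the FoxA2 mutant in red, the same line without the mutation in blue, and a bar at the mean of 2 libraries. Gata6 and Foxa2 RNA overlapped or lay close between 0 and 48 h in the mutant, Bmper fell and Nuak1 rose in both lines, and Vldlr and Vgf reached far higher levels without the mutation.

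Gata6 degradation in the FoxA2 mutant called 35 of 14625 genes, 0.239% of those tested, with 24 higher (0.164%) and 11 lower (0.0752%). The sizes were small: the called changes ran from 0.30 to 3.45 in absolute log2, and 2 of them reached 1. At an unadjusted p under 0.05 there were 1369 genes. All 35 called genes had both 48 h libraries on the same side of both 0 h libraries, as did 35.5% of all genes tested. The count rests on few libraries: it was 5 without the 0 h replicate 1, 1 without the 0 h replicate 2, 5 without the 48 h replicate 2 and 32 without the 48 h replicate 1. Bmper was called in all 4 of these fits, and 14 of the 35 genes in none. In a fit to the compared libraries alone, 0 genes were called and 779 had an unadjusted p under 0.05, while DESeq2 called 119 genes, 34 of the 35 among them. In bulk RNA, fewer cells of a type and less RNA per cell cannot be told apart.

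Among genes of secreted and membrane proteins, the largest fall was in Bmper, which encodes a secreted protein that binds BMP ligands and tunes their signalling. Bmper (ENSMUSG00000031963; chromosome 9, 23223076 to 23485215) stood at 20.4 and 21.5 CPM at 0 h and at 12.2 and 11.6 CPM at 48 h. Both 48 h libraries lay well under both 0 h libraries, and the change was −0.82 ± 0.09 (adjusted p = 5.22e-06). Its largest adjusted p on leaving out a library was 0.00121. Without the mutation Bmper also fell, from a mean of 290 to 180 CPM (−0.69 ± 0.07, adjusted p = 8.07e-09), and the responses did not differ beyond their error (−0.13 ± 0.11, 95% interval −0.35 to 0.10, adjusted p = 0.418). The untreated mutant started far lower, with a log2 difference of −3.79 ± 0.08 from untreated cells without the mutation. Enpep, which encodes the aminopeptidase that trims angiotensin peptides, went from 50.2 and 51.8 CPM to 39.2 and 35.3 CPM (−0.45 ± 0.09, adjusted p = 0.0286). Fgfr3, an FGF receptor tyrosine kinase, went from 32.6 and 33.7 CPM to 25.3 and 23.3 CPM (−0.45 ± 0.08, adjusted p = 0.0131). For both genes the groups were apart in the mutant, but each call was kept in only 1 of the 4 fits that leave out a library. Slc39a8, a zinc and manganese importer, fell by 0.36 (adjusted p = 0.0488) and its call was lost in all 4.

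The other 7 falls were between −0.41 and −0.30. Prdx1, a peroxide-reducing enzyme, was at 428 and 441 CPM at 0 h and at 362 and 315 CPM at 48 h. Ostc, a subunit of the oligosaccharyltransferase that glycosylates new proteins, was at 260 and 259 CPM and then at 208 and 207 CPM. It fell in the mutant (−0.32 ± 0.06, adjusted p = 0.0264) and rose without the mutation (0.17 ± 0.07, adjusted p = 0.0381), and these responses differed (−0.49, adjusted p = 0.000188). Cct6a, a subunit of the chaperonin that folds actin and tubulin, was at 522 and 535 CPM and then at 455 and 396 CPM. Polr3k of RNA polymerase III, Mrfap1 and Atp5f1 of the ATP synthase fell by 0.34, 0.30 and 0.30, with calls lost whichever library was left out. Rpl7, a ribosomal protein gene, went from 1342 and 1398 CPM to 1060 and 1007 CPM (−0.41 ± 0.07, adjusted p = 0.00489). Ribosomal protein genes have many near-identical pseudogene copies, so the Rpl7 count is uncertain. In the fits that leave out a library, the Rpl7 call was kept in 2 of 4, those of Prdx1 and Cct6a in 1, and that of Ostc in 0.

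Of the rises at a mean of 5 CPM or more, the largest was that of Nuak1. Nuak1 (ENSMUSG00000020032; chromosome 10, 84370900 to 84440668), a kinase related to AMPK, stood at 16.5 and 17.2 CPM at 0 h and at 29.7 and 29.2 CPM at 48 h. The groups were far apart for their spread, and the change was 0.81 ± 0.12 (adjusted p = 0.00259). Without the mutation Nuak1 rose by 1.46 ± 0.13, from a mean of 13.7 to 37.6 CPM, and the response in the mutant was smaller (−0.66 ± 0.18, adjusted p = 0.00645). The call in the mutant was kept in 2 of the 4 fits that leave out a library, with a largest adjusted p of 0.0973. Itpk1 (chromosome 12, 102568583 to 102704869), a kinase of soluble inositol phosphates, went from 27.3 and 26.0 CPM to 41.4 and 46.0 CPM (0.71 ± 0.10, adjusted p = 0.000425). It was kept in 3 of those 4 fits, with a largest adjusted p of 0.059. Rasd1, a Ras-like GTPase induced by glucocorticoids, went from 17.6 and 19.6 CPM to 24.6 and 32.7 CPM, with the 48 h replicates wide apart (0.62 ± 0.12, adjusted p = 0.0264, kept in 1 of 4). Stat6, the factor that carries interleukin-4 signals, went from 35.8 and 34.7 CPM to 48.8 and 50.5 CPM (0.49 ± 0.11, adjusted p = 0.0439). Errfi1, an inhibitor of the EGF receptor, rose by 0.37 and Acvr1, a type I receptor of the BMP and activin family, by 0.38, with adjusted p of 0.0361 and 0.0428. Calls of Stat6, Errfi1 and Acvr1 were lost whichever library was left out.

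Vgf, which encodes a secreted neuropeptide precursor, went in the mutant from 13.3 and 14.3 CPM to 23.8 and 21.8 CPM (0.72 ± 0.16, adjusted p = 0.0428). The same gene rose without the mutation from 3.11 and 3.15 CPM to 78.4 and 82.5 CPM, a change of 4.68 ± 0.19. The responses differed by −3.96 ± 0.25 (adjusted p = 1.47e-11), and the call within the mutant was lost in each fit that leaves out a library (largest adjusted p = 0.363). The heat-sensing channel gene Trpv3 showed the same order of sizes at low levels, from 1.65 and 2.33 CPM to 4.82 and 4.73 CPM in the mutant (1.26 ± 0.23) against 3.48 ± 0.17 without it. Its call in the mutant was also lost whichever library was left out. Tmem71 had the largest fitted change of the 35 genes, 3.45 ± 0.65, on 1 and 1 reads at 0 h and 13 and 9 reads at 48 h, so its size is poorly known. Snn, a small membrane protein gene, went from 2.10 and 2.24 CPM to 4.48 and 3.55 CPM (0.89 ± 0.16, adjusted p = 0.00916).

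Other rises were in genes of several kinds. Cdh5, the endothelial cadherin, went from 35.8 and 34.4 CPM to 48.1 and 48.1 CPM (0.45 ± 0.07, adjusted p = 0.00357). Its call held in 3 of the 4 fits that leave out a library, and its level in the untreated mutant was far under the mean of 334 CPM in untreated cells without the mutation. Krt19, a keratin of simple epithelia, went from 159 and 146 CPM to 194 and 247 CPM (0.53 ± 0.11, adjusted p = 0.0361), with the 48 h replicates further apart than the 0 h ones and a call kept in 1 of 4. Csrp2, a LIM-domain protein of actin fibres, went from 182 and 171 CPM to 244 and 277 CPM (0.56 ± 0.09, adjusted p = 0.00422, kept in 2 of 4) and fell without the mutation (−0.34 ± 0.09, adjusted p = 0.00489). Itga3 (chromosome 11, 95044475 to 95076844), the alpha chain of a laminin-binding integrin, was at 363 and 358 CPM at 0 h and at 441 and 470 CPM at 48 h. It rose in the mutant (0.34 ± 0.07, adjusted p = 0.0286) and fell without the mutation from a mean of 257 to 125 CPM (−1.04 ± 0.07, adjusted p = 5.57e-12). The test of the difference gave 1.38 ± 0.10 (adjusted p = 1.47e-10). The call for the rise of Itga3 in the mutant was kept in 1 of the 4 fits without a library. Myo18a, an unconventional myosin, Fhl2, a LIM-domain cofactor, Ehbp1l1, a vesicle transport adaptor, and Ephb3, an ephrin receptor, rose by 0.41, 0.34, 0.42 and 0.32. Tuft1, Flvcr2, a membrane transporter, and the factors Sox13 and Tead4 rose by 0.54, 0.55, 0.53 and 0.32. Each of these 8 calls was lost in at least 3 of those 4 fits.

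**Figure D2:**
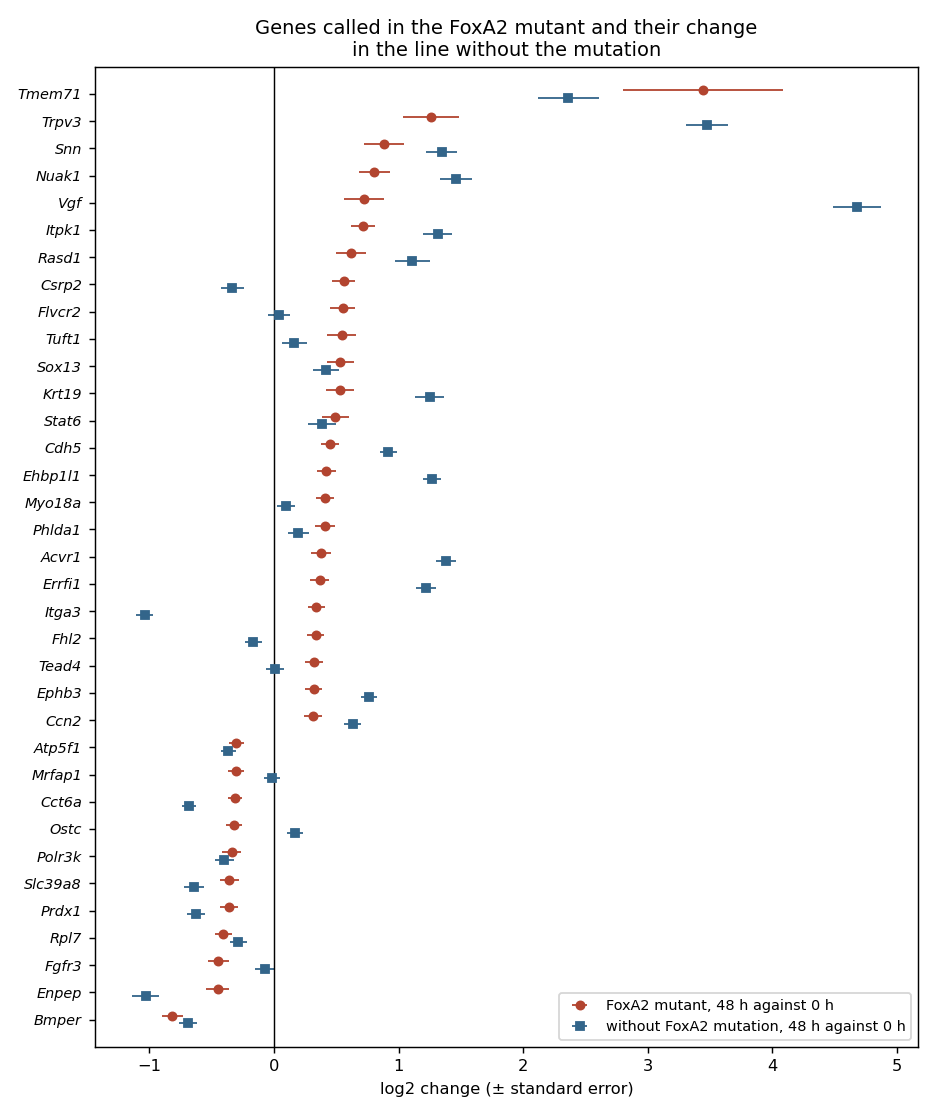
Log2 change from 0 to 48 h of dTAGV1 (± standard error) of the 35 genes called in the FoxA2 mutant, with the mutant as red circles and the line without the mutation as blue squares. The genes were chosen by the red values; Itga3 and Csrp2 lie on opposite sides of 0 in both lines, and Vgf reaches 4.68 without the mutation.

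Among called genes with a mean of 5 CPM or more, the promoters of the 3 largest rises and 3 largest falls that the RefSeq table holds are shown because Gata6 binds GATA sequences and these genes moved when it was degraded. Each runs from 250 bases before to 50 bases after an annotated start, on build GRCm38.p6, 5′ to 3′ on the gene's strand. Capitals mark the letters GATA on either strand (TATC on the printed one).
Nuak1 (chr10:84440619-84440918, minus strand): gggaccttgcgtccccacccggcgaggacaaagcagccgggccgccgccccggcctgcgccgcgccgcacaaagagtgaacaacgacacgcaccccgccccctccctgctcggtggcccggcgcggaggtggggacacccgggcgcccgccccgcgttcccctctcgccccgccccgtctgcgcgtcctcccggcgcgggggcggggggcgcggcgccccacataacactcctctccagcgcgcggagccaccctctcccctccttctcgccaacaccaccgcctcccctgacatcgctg
Itpk1 (chr12:102704820-102705119, minus strand): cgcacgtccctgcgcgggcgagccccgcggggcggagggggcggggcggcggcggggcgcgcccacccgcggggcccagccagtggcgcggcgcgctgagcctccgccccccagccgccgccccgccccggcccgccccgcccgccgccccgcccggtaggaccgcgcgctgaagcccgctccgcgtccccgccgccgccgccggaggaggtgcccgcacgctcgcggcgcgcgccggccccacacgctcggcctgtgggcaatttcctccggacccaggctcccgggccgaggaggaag
Flvcr2 (chr12:85746289-85746588, plus strand): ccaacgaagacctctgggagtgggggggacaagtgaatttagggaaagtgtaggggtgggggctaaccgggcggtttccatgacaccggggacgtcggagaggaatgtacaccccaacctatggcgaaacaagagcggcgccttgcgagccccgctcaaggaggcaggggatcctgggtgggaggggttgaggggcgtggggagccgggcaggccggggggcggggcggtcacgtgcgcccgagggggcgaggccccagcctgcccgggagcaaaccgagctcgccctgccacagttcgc
Bmper (chr9:23222826-23223125, plus strand): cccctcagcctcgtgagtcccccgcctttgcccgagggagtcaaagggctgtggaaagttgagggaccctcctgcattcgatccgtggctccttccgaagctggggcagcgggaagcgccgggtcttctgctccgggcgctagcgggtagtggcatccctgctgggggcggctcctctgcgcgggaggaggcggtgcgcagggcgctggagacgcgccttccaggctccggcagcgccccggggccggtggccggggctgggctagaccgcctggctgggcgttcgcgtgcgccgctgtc
Enpep (chr3:129332700-129332999, minus strand): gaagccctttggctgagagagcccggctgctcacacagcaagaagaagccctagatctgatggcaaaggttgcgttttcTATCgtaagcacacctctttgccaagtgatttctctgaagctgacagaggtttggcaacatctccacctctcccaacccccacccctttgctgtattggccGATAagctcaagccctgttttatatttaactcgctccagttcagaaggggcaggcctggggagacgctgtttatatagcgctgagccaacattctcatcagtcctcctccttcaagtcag
Fgfr3 upstream start (chr5:33721474-33721773, plus strand): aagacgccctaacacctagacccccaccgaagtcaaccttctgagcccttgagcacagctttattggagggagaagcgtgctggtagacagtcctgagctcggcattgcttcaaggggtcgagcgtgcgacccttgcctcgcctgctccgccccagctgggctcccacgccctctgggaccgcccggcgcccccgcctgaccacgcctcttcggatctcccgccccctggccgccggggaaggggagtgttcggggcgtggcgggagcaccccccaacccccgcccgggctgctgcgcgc
Fgfr3 downstream start (chr5:33722056-33722355, plus strand): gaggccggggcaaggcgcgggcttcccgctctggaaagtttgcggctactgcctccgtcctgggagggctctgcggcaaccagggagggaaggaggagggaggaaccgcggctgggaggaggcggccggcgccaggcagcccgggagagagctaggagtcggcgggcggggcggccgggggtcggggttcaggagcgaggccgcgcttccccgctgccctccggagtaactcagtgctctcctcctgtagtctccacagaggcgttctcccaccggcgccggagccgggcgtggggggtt

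Of these 7 windows, the Enpep one held GATA, at 2 places, and the other 6 held none. The letters GATA on either strand occur in 57.9% of all 32851 promoter windows in the table. The longer GATA forms AGATAA or AGATAG or TGATAA or TGATAG, which all contain the short one, are in 29.8% and occur in none of the 7. The forkhead forms TGTTTAC and TGTTTGC are in 8.48% of all windows and also in none of the 7. Over the called genes, 14 of 24 rises and 8 of 11 falls had a window, of which 8 and 4 held the short form, 4 and 2 a longer GATA form, and 0 and 0 a forkhead form. Counted per gene, 61.5% of 27025 genes have a window with the short form, 33.0% with a longer GATA form and 9.47% with a forkhead form. A match is a description of these letters, and windows away from the start were not searched.

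Across pathways and cell types, 25 gene lists with 409 genes tested gave 4 calls in the mutant, 1 each in 4 lists. Over all genes 0.239% were called. Cdh5 was the call among 13 endothelial genes, Phlda1 among 17 genes of the FGF and ERK response, the matrix protein gene Ccn2 among 19 immediate early genes and Krt19 among 21 epithelial genes. Ccn2 went from 387 and 381 CPM to 451 and 503 CPM (0.31 ± 0.07, adjusted p = 0.0439), and Phlda1 from 56.3 and 55.4 CPM to 69.0 and 79.4 CPM (0.41 ± 0.08, adjusted p = 0.0286). Both calls were kept in 1 of the 4 fits that leave out a library. The median change was 0.23 in the FGF and ERK list, with 15 of 17 genes above 0, and 0.23 in the epithelial list, with 18 of 21, against 0.003 and 50.5% over all genes. Without the mutation the medians of these lists were 0.77 and −0.51, against 0 over all genes. In the mutant the epithelial sum was 2219 to 2394 CPM at 0 h and 2518 to 2954 CPM at 48 h, with the 48 h libraries wide apart. The FGF and ERK sum was 362.3 to 363.2 CPM and then 412.9 to 437.9 CPM. No set test was run and the counts above 0 were not read without each library, so these are descriptions of the lists.

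The lists in the next sentences had no called gene in the mutant, and with 0.239% of all genes called there, a list of this size would hold none at the background share. Without the mutation the shares over all genes were 18.2% higher and 21.9% lower. Of the 21 primitive endoderm and XEN genes 0 were called, 5 had an unadjusted p under 0.05, and their changes ran from −0.22 to 0.28, while 4 rose and 10 fell without the mutation. Dkk1, a secreted WNT inhibitor, was at 176 and 179 CPM at 0 h and at 170 and 173 CPM at 48 h in the mutant (−0.05 ± 0.10), and fell by 1.46 without the mutation, where it was far lower from the start, at a mean of 16.4 CPM. Lrp2, the endocytic receptor megalin, was at 955 and 1112 CPM and then at 1135 and 947 CPM (0.01 ± 0.21), and fell by 1.28 without the mutation. The tests of those differences gave 1.40 (adjusted p = 4.18e-07) for Dkk1 and 1.29 (adjusted p = 0.00193) for Lrp2. Dkk1 and Lrp2, like the other list members named in the next sentences, were picked after their values were seen. Dab2, an endocytic adaptor, was at 425 and 420 CPM and then at 368 and 358 CPM, which missed the threshold (−0.22 ± 0.06, adjusted p = 0.103), and fell by 0.69 without the mutation. Of 19 parietal and 23 visceral endoderm genes tested, 0 were called in the mutant. Without the mutation, 6 parietal genes rose and 4 fell, and 7 visceral genes rose and 5 fell.

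Lists of metabolism and growth are read against the same shares, 0.239% called in the mutant and 18.2% higher and 21.9% lower without the mutation. Of 25 glycolysis and hypoxia genes, 0 were called in the mutant, and 19 rose without the mutation. In the mutant 22 had a value above 0 with a median of 0.15, against 50.5% and 0.003 over all genes. Their summed level there overlapped between groups, at 16640 to 17740 CPM at 0 h and 17300 to 20280 CPM at 48 h. The test of the difference was called more negative in the mutant for 14 of the 25, where 10.9% of all genes were. Vegfa, the vascular growth factor, was at 62.1 and 63.1 CPM and then at 64.7 and 64.6 CPM in the mutant, and rose from a mean of 103 to 284 CPM without the mutation. Bnip3, a mitophagy receptor induced by low oxygen, had a change of 0.16 ± 0.14 in the mutant and rose by 1.89 ± 0.14 without the mutation. Of 26 cell cycle genes, 0 were called in the mutant, with changes from −0.35 to 0.19, and 18 fell without the mutation. The difference was called more positive in the mutant for 19 of the 26, where 16.1% of all genes were. Of 24 cholesterol synthesis genes, 0 were called in the mutant, while 3 rose and 16 fell without the mutation. In the FGF and ERK list 11 genes rose without the mutation, among them Dusp6, the ERK phosphatase, from 20.2 to 138 CPM. Dusp6 in the mutant went from 7.17 and 8.21 CPM to 10.4 and 9.71 CPM, which did not pass the test (0.39 ± 0.20, adjusted p = 0.555).

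**Figure D3:**
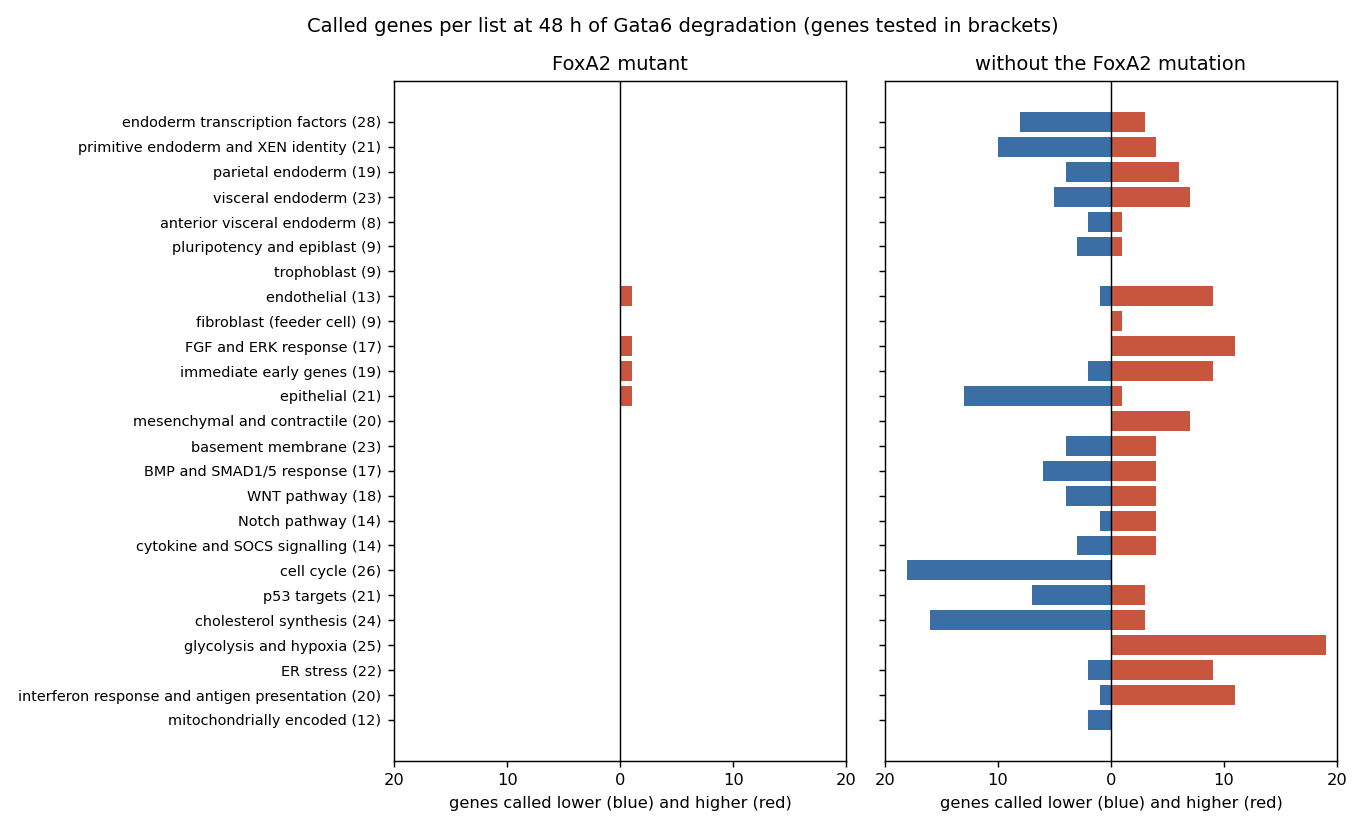
Number of genes called lower (blue, to the left) and higher (red, to the right) at 48 h in each of 25 lists, for the FoxA2 mutant and for the same line without the mutation, with the number of genes tested in brackets. The mutant shows 1 gene in each of 4 lists, while the line without the mutation reaches 19 higher glycolysis and hypoxia genes and 18 lower cell cycle genes.

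In the line without the mutation, the same 48 h of dTAGV1 called 5864 of the 14625 genes (40.1%), 2656 higher (18.2%) and 3208 lower (21.9%). The median standard error was 0.148 in the mutant and 0.147 in that line, while the median absolute change was 0.136 and 0.38. Both errors rest on a spread fitted over all groups, so their likeness does not measure the spread within each comparison. The chi-square per degree of freedom was 14 for the 48 h replicates in the mutant and 3.22 in that line. For the 0 h replicates it was 6.13 and 12.8. In fits to the compared libraries alone, 0 and 5093 genes were called. The contrast of both responses, in which no library is shared, was called for 3956 genes (27%), 2359 more positive (16.1%) and 1597 more negative (10.9%) in the mutant. With the share of reads outside genes as a covariate, 2032 of these 3956 calls were kept. The 870 genes that rose without the mutation by at least 1 log2 had a median of 1.57 there and of 0.05 in the mutant. In the mutant 11 of them were called higher, against 0.164% of all genes, and 39 reached 1 log2, against 373 of all 14625. The 428 that fell without the mutation by at least 1 log2 had a median of −1.34 there and of −0.004 in the mutant. In the mutant 1 of these was called lower, against 0.0752% of all genes, and 1 higher. A fall of 1 log2 or more in the mutant was reached by 11 of the 428, against 429 of all 14625. Both sets were picked by their change without the mutation, so their medians there describe the extremes.

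The genes called in the mutant often had a call in the same direction without the mutation. Of the 24 rises, 16 were called higher at 48 h in the line without the mutation, where 18.2% of all genes were. Of the 11 falls, 8 were called lower there, where 21.9% of all genes were. Itga3, Csrp2, Fhl2 and Ostc were called in the opposite direction. At 6 h without the mutation, 9 of the 24 rises and 3 of the 11 falls had a call in their direction, where 3.43% of all genes were called higher and 10.4% lower (13.9% in all). At 24 h these were 16 and 4, where 7.11% were called higher and 14.3% lower (21.4% in all). None of the 35 was called in the opposite direction at 6 or 24 h. These early counts and shares rest on 1 library: without the 0 h replicate 1 of the line without the mutation, 4 genes were called higher and 5 lower at 6 h over all genes, and 82 and 210 at 24 h. At 72 h the counts were 18 and 9, with 17.8% and 21.9% of all genes called (39.6% in all), and at 96 h 16 and 9, with 18.2% and 22.1% (40.3% in all). At 72 h 2 and at 96 h 3 of the 35 were called the other way, and all times without the mutation share its 0 h libraries.

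**Figure D4:**
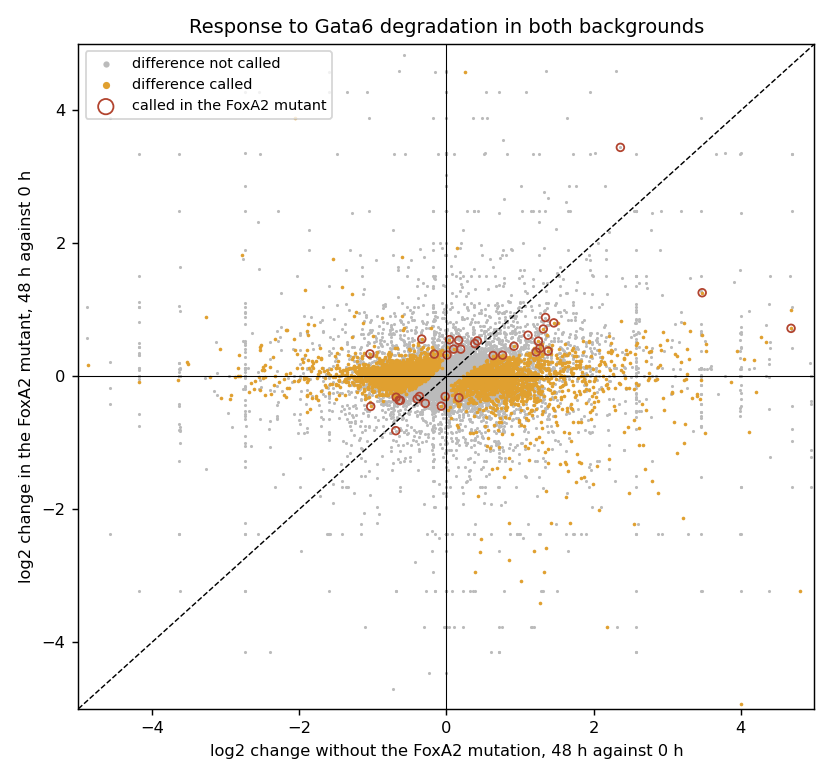
Log2 change in the FoxA2 mutant against log2 change without the mutation at 48 h of dTAGV1, 1 point per gene, orange where the test of the difference was called and ringed in red where the mutant's change was called; 61 genes lie beyond ±5 and are not drawn. The orange cloud lies along the horizontal axis, and the dashed line marks equal changes.

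Apart from Vgf, the genes named here for large differences between both responses were called without the mutation and not in the mutant. Vldlr, a lipoprotein receptor, was at 20.4 and 22.0 CPM and then at 27.5 and 25.0 CPM in the mutant, and rose from 15.9 and 19.0 CPM to 152 and 153 CPM without the mutation. Egr1, an immediate early factor, was at 8.96 and 7.90 CPM and then at 12.5 and 11.1 CPM in the mutant, against a rise of 3.53 ± 0.22 without the mutation. Nupr1, a stress-induced nuclear protein gene, was at 1.69 and 2.74 CPM and then at 1.93 and 2.62 CPM, against a rise of 3.27 ± 0.18. Sulf1, an enzyme that edits heparan sulfate, started higher in the mutant, at 9.14 and 8.84 CPM, than without it, at 0.822 and 0.514 CPM, and reached a like level of 8.43 and 5.89 CPM there at 48 h. Adm, the vasodilator peptide gene, and Zfp711, a zinc-finger gene, were at or under 0.584 CPM in all 4 mutant libraries, so their responses there rest on few reads. The Zfp711 difference of −3.27 (adjusted p = 0.0431) came to −1.13 (adjusted p = 0.463) once the share of reads outside genes was a covariate and lost its call in 5 of the 8 fits that leave out a library (largest adjusted p = 0.4).

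In the other direction lay genes that fell without the mutation, among them Wnt7b, a WNT ligand. In the mutant it stood at 95.5 and 86.8 CPM at 0 h and at 81.7 and 101 CPM at 48 h (0.01 ± 0.15), with groups that overlapped. Without the mutation it fell from 18.1 and 24.2 CPM to 2.38 and 3.70 CPM (−2.81 ± 0.21), and the responses differed by 2.81 ± 0.26 (adjusted p = 1.04e-08). Crb3, an apical polarity gene, Palm3, a paralemmin, and Acot7, a fatty acyl-CoA thioesterase, had changes of 0.14, 0.09 and 0.14 in the mutant and fell by 2.49, 2.51 and 2.40 without the mutation. Mybpc3, a myosin-binding protein gene, Kcnk13, a potassium channel gene, and Chchd10, a mitochondrial protein gene, had −0.01, −0.11 and −0.07 in the mutant and fell by 2.54, 2.65 and 2.60. Nup210, a nuclear pore gene, was at 19.5 to 19.9 CPM in all 4 mutant libraries and fell from 1.17 and 0.899 CPM to 0.207 and 0 CPM without the mutation. The Nup210 difference of 3.20 became 7.58 without the 48 h replicate 1 of that line, which leaves the library at 0, so that size depends on the prior count. The Kcnk13 difference of 2.55 came to 1.68 with that covariate and lost its call (adjusted p = 0.0582). Of these 8 genes, all but Chchd10 had a higher level in the untreated mutant than in untreated cells without the mutation. Between both untreated lines 7065 genes were called (48.3%), 3600 higher (24.6%) and 3465 lower (23.7%) in the mutant.

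Genes that moved early without the mutation mostly shared their direction with the mutant at 48 h, but both the sets and the shares rest on single libraries. Without the 0 h replicate 1 of the line without the mutation, the sets called at 6 h were 4 rises and 5 falls, and those at 24 h 82 rises and 210 falls; without its 0 h replicate 2 they were 927 and 1802 at 6 h. With all libraries, of the 502 genes that rose at 6 h without the mutation, 86.9% had a positive value in the mutant, and of the 1525 that fell, 89.4% had a negative one, with medians of 0.14 and −0.15. Without the 48 h replicate 2 of the mutant these shares were 73.1% and 56.7%, with medians of 0.07 and −0.02. For the 1040 genes that rose and the 2091 that fell at 24 h, the shares were 83.1% and 87.6% with all libraries and 69.0% and 54.5% without that one. In the set that fell at 6 h, the median log2 level of 48 h replicate 2 was −0.28 relative to 0 h and that of replicate 1 was −0.02. The same set also separated untreated replicates, by 0.15 between those of the mutant and by −0.31 between those without the mutation (replicate 2 minus replicate 1). Reads outside genes per 100 gene reads were 6.63 and 7.29 in the 0 h mutant libraries and 7.05 and 6.28 in the 48 h ones, and mitochondrially encoded RNA made up 1.06, 1.18, 1.09 and 0.932% in that order. The part of these in the shared direction of the early sets was not tested. The genes called at 48 h without the mutation had the same sign in the mutant in 54.7% of rises and 48.3% of falls. These shares also rest on single libraries. They were 62.7% and 67.4% without the 48 h replicate 2 of the mutant, and 50.1% and 39.3% without its 48 h replicate 1.

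**Figure D5:**
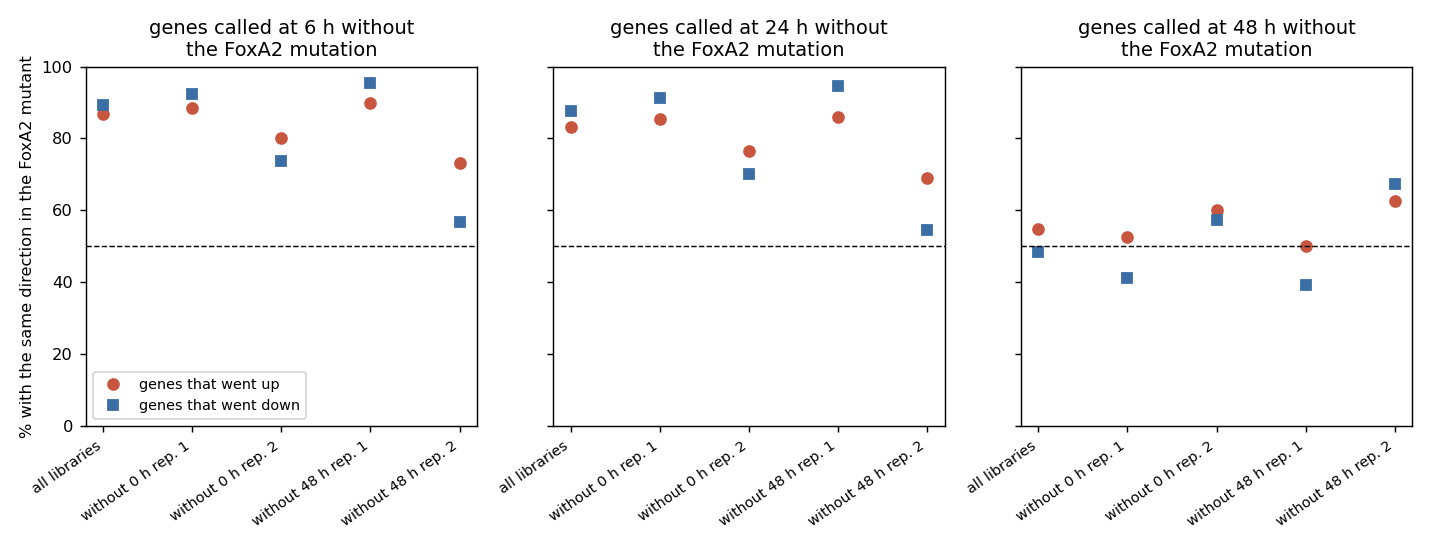
Percent of genes called at 6, 24 or 48 h without the FoxA2 mutation whose 48 h value in the mutant had the same sign, with all libraries and without each mutant library, for genes that went up (red circles) and down (blue squares). The shares for the early sets drop without the 48 h replicate 2, to 56.7% for the genes that fell at 6 h. Those for the 48 h sets rise without it, to 62.7% and 67.4%. The dashed line marks as many genes of either sign.

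Degradation of Sox17, another endoderm factor, in a FoxA2 mutant allowed the response to be set beside the loss of a second factor. Sox17 degradation called 403 genes (2.76%) in that line, 223 higher (1.52%) and 180 lower (1.23%). Its libraries were deeper, at 29.3 to 42.5 M reads in genes against 20.2 to 22.3 M in the Gata6-FKBP mutant. The chi-square per degree of freedom of replicates was 7.49 at 0 h and 4.53 at 48 h, against 6.13 and 14. The part of depth and spread in the counts of called genes was not tested. The contrast of both responses called 233 genes (1.59%), 145 more positive (0.991%) and 88 more negative (0.602%) under Gata6 degradation. Of the 35 genes called under Gata6 degradation, 7 were called in the opposite direction under Sox17 degradation and 1, Csrp2, in the same direction. Nuak1 rose under Gata6 degradation and fell under Sox17 degradation, from 34.0 and 34.8 CPM to 20.8 and 19.1 CPM, a difference of 1.59 ± 0.17 (adjusted p = 1.26e-06). Sox13 went from 17.7 and 20.1 CPM to 25.6 and 29.1 CPM under Gata6 degradation and from 25.2 and 23.9 CPM to 9.84 and 11.1 CPM under Sox17 degradation, a difference of 1.76 ± 0.15 (adjusted p = 1.72e-08). Cdh5 likewise rose by 0.45 in the former and fell by 0.90 in the latter, with a difference of 1.35 ± 0.10.

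Enpep and Fgfr3 moved the opposite way, falling by 0.45 and 0.45 under Gata6 degradation and rising by 0.60 and 0.54 under Sox17 degradation. Bmper fell under Gata6 degradation and stood at 27.6 and 28.3 CPM and then at 27.5 and 26.7 CPM under Sox17 degradation, a difference of −0.77 ± 0.11 (adjusted p = 0.000162). Csrp2 rose under both, by 0.56 and by 1.17. The integrin gene Itga7 had 0.45 ± 0.15 under Gata6 degradation, which did not pass the test (adjusted p = 0.291), and fell by 1.09 under Sox17 degradation. Epb41l4a, a cytoskeletal linker gene, had 0.28 ± 0.18 and fell by 1.18. Fst, the activin antagonist follistatin, was at 310 and 320 CPM and then at 300 and 286 CPM under Gata6 degradation (−0.11 ± 0.09) and rose by 1.40 under Sox17 degradation, while Oaf, Mgarp and Ugt2b34 had −0.36, −0.60 and −0.49 and rose by 2.04, 0.89 and 0.91. Gata6 RNA itself rose in the Sox17-FKBP mutant (0.40 ± 0.06, adjusted p = 0.000141), a response that differed from its 0.04 in the Gata6-FKBP mutant by −0.37 (adjusted p = 0.0228).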

How the data were processed

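Per the labels' protocols, RNA was harvested with trizol and libraries were made from total RNA; per the submitters' processing notes, reads were aligned with HISAT2 to mm10 and counted with HTSeq (versions, annotation and strand setting are not given in the sources used here). The deposited values are raw counts per gene for 47729 genes, of which 47224 had a symbol in the name table used. Totals of reads outside genes were kept apart. Promoter windows and coordinates came from RefSeq tables on GRCm38.p6. The members of the comparison and the gene lists were chosen with earlier results of these data known.

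A quasi-likelihood model of edgeR 4.0.16 (R 4.3.3) was fitted over all 40 RNA-seq libraries, with a mean for each of 20 groups, TMM scaling and edgeR's filter on low counts, which kept 14625 genes and left 20 residual degrees of freedom. P-values were adjusted by Benjamini-Hochberg over all genes. Standard errors are the change over the square root of F. The procedure was tested on simulated data with planted changes larger than most of those called in the mutant, so that test does not cover changes of their size. Named genes were Gata6, Gata4, Sox17, Foxa2 and the listed endoderm factors, the 14 largest rises and falls at 5 CPM or more, called list members, and the extremes of both contrasts; other called genes and list members were named after their values were seen. Alternatives were median-of-ratios scaling, no low-count filter, DESeq2 1.42.0, a replicate block, reads outside genes as a covariate, only the libraries compared, and leaving out each library, where the lone sample is assumed to vary like the others. The crossed block and the direction shares without each library were chosen after seeing the data. Depth limits the precision of low genes, and the number of libraries that of all. A gene withheld from the text is not reported here. The 14 chromatin samples were not analysed here.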

Additional observations from a re-analysis of the deposited data

Results flagged for a closer look

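For 38 genes, the response to 48 h of Gata6 degradation differed between the FoxA2 mutant and the same line without the mutation. The test of the difference was edgeR's quasi-likelihood test, with an adjusted p under 0.05. The 38 are counted among Gata6, Gata4, Sox17, Foxa2, the genes called in the mutant and the extremes of that contrast. Zfpm1, Dkk1 and Lrp2, named above, also differed and are not among the 38. Values here are the log2 change in the mutant minus that without the mutation. Many of the 38 genes were picked because they were called in 1 of both responses or lie at the ends of the contrast, so their sizes describe the extremes.

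Of Gata6, Gata4, Sox17 and Foxa2, the difference was called for Gata4 (0.38) and Foxa2 (0.40). Of 28 listed endoderm transcription factors tested, 6 were called more positive in the mutant and 1 more negative. Over all genes these shares were 16.1% and 10.9%. Among genes called in the mutant, the change there was the less positive for Nuak1 (−0.66), Vgf (−3.96), Itpk1 (−0.60), Krt19 (−0.72), Cdh5 (−0.46), Ehbp1l1 (−0.85), Ephb3 (−0.44), Ccn2 (−0.32), Acvr1 (−1.0), Errfi1 (−0.85) and Trpv3 (−2.22). It was the more positive for Csrp2 (0.90), Flvcr2 (0.51), Myo18a (0.31), Itga3 (1.38), Fhl2 (0.50) and Tead4 (0.31). Among the falls, the change in the mutant was the less negative for Enpep (0.58) and Cct6a (0.37), and lay below that without the mutation for Fgfr3 (−0.38), Ostc (−0.49) and Mrfap1 (−0.29).

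At the positive end, with falls that were called without the mutation only, lay Nup210 (3.20, and 7.58 without the 48 h replicate 1 of the line without the mutation), Wnt7b (2.81), Crb3 (2.63), Palm3 (2.60), Kcnk13 (2.55, a call lost with reads outside genes as a covariate), Mybpc3 (2.53), Acot7 (2.53) and Chchd10 (2.53). At the negative end, beside Vgf, lay Adm (−3.82), Sulf1 (−3.66), Zfp711 (−3.27, a call lost in 5 of 8 fits that leave out a library and with the covariate), Nupr1 (−3.24), Egr1 (−3.04) and Vldlr (−2.82).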

How the results depend on the processing

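The count of 35 genes called in the mutant was 35 with median-of-ratios scaling, 86 without the low-count filter (40 higher, 46 lower, 27 of the 35 kept), 121 with reads outside genes as a covariate (69 higher, 52 lower), 0 with only the libraries compared and 119 with DESeq2 (69 higher, 50 lower); the cause was not tested. Leaving out 1 library gave 1 to 32 genes. Replicate numbers did not pair the libraries: replicate differences at 0 and 48 h had a correlation of −0.294 in the mutant, and a block for replicate number gave 28 genes. A crossed block gave 40 genes, 34 of the 35 among them. Gata6 RNA had −0.012 without the 0 h replicate 1 and −0.038 without the 48 h replicate 1 (adjusted p 0.989 and 0.839), against 0.04 with all, and ran from −0.038 to 0.104 on leaving out a library. In the line without the mutation 4405 to 5868 genes were called over all alternatives, and the test of the difference called 2745 to 4177, against 5864 and 3956. Among genes named for that difference, Zfp711 (−1.13, adjusted p 0.463) and Kcnk13 (1.68, adjusted p 0.0582) lost their calls with the covariate. With it, 5077 genes were called in the line without the mutation, 3557 of the 5864 among them. The test of the difference then called 2943, with 2032 of the 3956 among them. Reads outside genes per 100 gene reads were 6.11 and 5.66 at 0 h and 7.48 and 8.15 at 48 h in that line. Their part in its response was not tested. Without the 0 h replicate 1 of that line its 6 h calls were 4 higher and 5 lower, against 502 and 1525. The contrast with Sox17 degradation called 421 genes with the covariate, against 233, and 130 to 227 on leaving out a library. With 2 libraries a group, the median standard error was 0.148 (log2) and the smallest change called in the mutant was 0.302. Changes under that size, and larger ones in less precise genes, can be missed.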
